A study of Mus musculus with 24 samples.

Results

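Adipokines are the hormones, complement proteins, carriers and enzymes that fat tissue releases. The set described here was 8 genes chosen by name, Lep, Adipoq, Retn, Cfd, Rarres2, Rbp4, Apln and Nampt, and all 8 were found among the 19015 genes of the deposited table. The rule names the genes and uses no measured value. RNA had been sequenced from female mice knocked out for Prxl2a (KO) and from female wildtype mice (WT), all 12 weeks old, perfused with PBS to clear the blood and otherwise untreated. The 8 groups were KO and WT dorsal brown adipose tissue (BAT), KO and WT inguinal adipose tissue (IAT), the white subcutaneous depot of the groin, KO and WT brain, and KO and WT liver, with 3 libraries each. No source used here gives the strain or says how the knockout allele was made. The design text counts 3 mice for each group, and the 4 tissues may have been taken from the same animals.

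Leptin (Lep) reports the size of fat stores to the hypothalamus, adiponectin (Adipoq) raises insulin sensitivity in liver and muscle, and resistin (Retn), which in mice is made by adipocytes, opposes insulin action. Adipsin (Cfd) is the serine protease that starts the alternative complement pathway, and chemerin (Rarres2) attracts leukocytes that carry its receptor Cmklr1. Rbp4 carries retinol in the blood and comes mainly from hepatocytes, apelin (Apln) is a peptide ligand of the receptor Aplnr, and Nampt makes nicotinamide mononucleotide from nicotinamide, the rate-limiting step of NAD salvage, and also exists as a secreted protein. Fat depots differ in how much of each they make, white adipocytes being the main source of leptin.

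Libraries held 12327459 to 12948149 counts in BAT, 16147508 to 17323714 in IAT, 15788266 to 17293215 in brain and 17034043 to 18257788 in liver. Prxl2a, the targeted gene, averaged 21.1 TPM in KO BAT and 511 TPM in WT BAT, 18.1 and 428 TPM in KO and WT IAT, 10.1 and 184 TPM in KO and WT brain, and 1.65 and 84.3 TPM in KO and WT liver, where TPM is a level per transcript length, scaled to the total of the library. With a pass set at an adjusted p under 0.05, it fell in KO BAT, brain and liver, and in IAT it did not pass in edgeR (log2 fold change -4.58, SE 0.41, adjusted p = 0.0912), although in each of the 4 tissues the KO libraries were all lower than the WT libraries. Some fat libraries stood apart in transcripts of other cells. The 12 lymphocyte markers, none of them at 0 in a whole group of fat libraries, summed to 2712 and 1340 TPM in KO IAT replicates 1 and 3 and to 10.9 TPM in replicate 2, against 23.5 to 33.6 TPM in WT IAT. The 10 skeletal muscle markers summed to 18.4 to 51.4 TPM in KO IAT, with Ckm at 0, against 1630, 6047 and 9.56 TPM in WT IAT. In BAT the muscle markers summed to 4.74 to 134 TPM in KO, against 2329, 3.22 and 31.3 TPM in WT. The 10 macrophage markers summed to 1499 to 3126 TPM in KO IAT and to 2298, 6348 and 8100 TPM in WT IAT, and to 175 to 235 TPM in KO BAT and 599, 196 and 243 TPM in WT BAT. The 10 stromal markers summed to 3222 to 4424 TPM in KO IAT and 4626 to 8941 TPM in WT IAT, and no macrophage or stromal marker was at 0 in these groups.

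**Figure D1:**
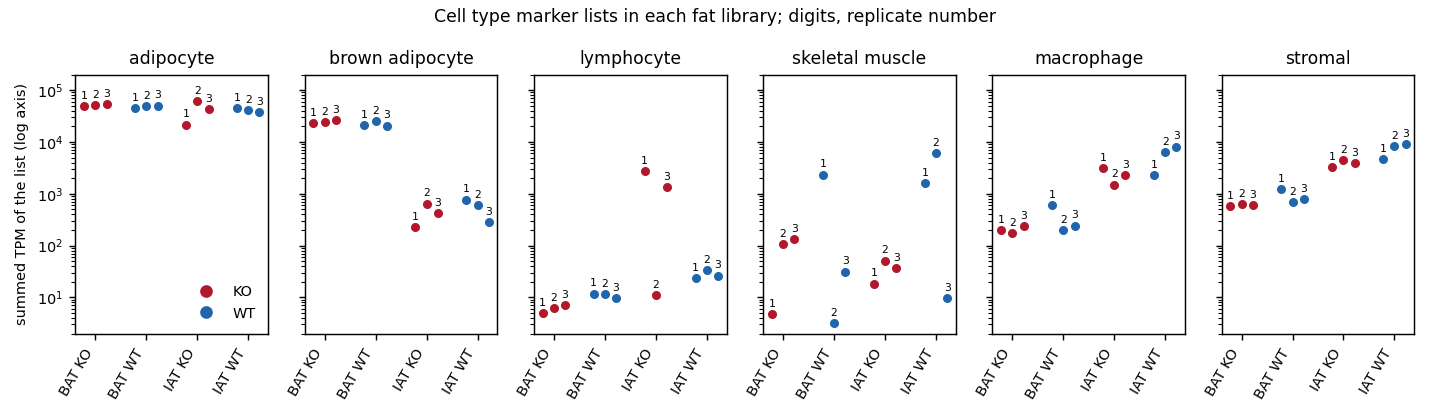
Summed TPM of 6 cell type marker lists in each of the 12 fat libraries, on a log axis, with KO in red, WT in blue and the replicate number above each point. Lymphocyte markers stand at 2712 and 1340 TPM in KO IAT replicates 1 and 3, and muscle markers at 1630 and 6047 TPM in WT IAT replicates 1 and 2 and at 2329 TPM in WT BAT replicate 1.

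Brown and inguinal fat matched their labels, and so did liver and brain by their own markers. The 12 adipocyte markers, a list that holds none of the 8 members, summed to 49202 to 53654 TPM in KO BAT and 44357 to 50412 TPM in WT BAT. They summed to 21694, 62256 and 42580 TPM in KO IAT and 45342, 40702 and 38180 TPM in WT IAT. The 8 brown adipocyte markers summed to 20579 to 26332 TPM over the BAT libraries and to 225 to 770 TPM over the IAT libraries. Hepatocyte markers summed to 147277 to 174478 TPM over the liver libraries, and neuron and glia markers to 7800 to 12537 TPM over the brain libraries. In KO IAT the adipocyte sum was lowest in the library with the most lymphocyte transcripts. In bulk tissue, fewer adipocytes and less RNA per adipocyte cannot be told apart.

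RefSeq promoter windows of build GRCm38.p6, running from 250 bases before to 50 bases after each transcript start, were at hand for 7 of the 8 genes. The windows of Lep (chr6:29059971-29060270), Adipoq (chr16:23146286-23146585), Retn (chr8:3655520-3655819) and Nampt (chr12:32820085-32820384), all on the plus strand, are shown because Lep and Adipoq were near 0 outside fat, while Retn and Nampt were the 2 members whose KO and WT libraries did not overlap in brown fat. They were searched on both strands for TTGCGCAA, the palindrome bound by C/EBP factors, and for its looser form TTGCNNAA, which overlaps it, for the nuclear receptor string AGGTCA, for the TATA box as TATAAA, for the E-box CACGTG, for CCAAT and for the GC box GGGCGG. Capitals mark TTGCGCAA and GGGCGG in Lep, CCAAT in Adipoq and GGGCGG in Nampt, on either strand.
Lep: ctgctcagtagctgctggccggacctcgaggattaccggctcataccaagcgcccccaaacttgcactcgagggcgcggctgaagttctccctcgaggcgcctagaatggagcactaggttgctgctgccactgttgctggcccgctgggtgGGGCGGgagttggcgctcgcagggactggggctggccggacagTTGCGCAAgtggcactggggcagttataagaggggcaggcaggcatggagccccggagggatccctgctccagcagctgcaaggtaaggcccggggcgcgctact
Adipoq: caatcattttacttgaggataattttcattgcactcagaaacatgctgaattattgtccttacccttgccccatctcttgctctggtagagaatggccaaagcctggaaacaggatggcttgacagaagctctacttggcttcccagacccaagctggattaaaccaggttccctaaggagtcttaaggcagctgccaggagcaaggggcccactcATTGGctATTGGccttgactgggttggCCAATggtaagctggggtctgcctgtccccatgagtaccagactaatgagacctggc
Retn: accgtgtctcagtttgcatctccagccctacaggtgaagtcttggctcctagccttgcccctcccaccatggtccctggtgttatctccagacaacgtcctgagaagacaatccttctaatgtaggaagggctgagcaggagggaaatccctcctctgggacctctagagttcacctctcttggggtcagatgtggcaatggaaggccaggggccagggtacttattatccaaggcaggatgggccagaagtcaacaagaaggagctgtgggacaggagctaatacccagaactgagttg
Nampt: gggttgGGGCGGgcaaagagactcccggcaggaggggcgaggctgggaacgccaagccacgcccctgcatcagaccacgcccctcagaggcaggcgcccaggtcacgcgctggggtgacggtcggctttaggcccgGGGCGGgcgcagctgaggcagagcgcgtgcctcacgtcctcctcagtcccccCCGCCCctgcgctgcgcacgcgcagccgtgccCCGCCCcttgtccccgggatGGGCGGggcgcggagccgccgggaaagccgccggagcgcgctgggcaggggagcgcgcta
The Lep window holds TTGCGCAA with its first base 55 bases before the start, a string found in 60 of 32851 mouse promoter windows of this length, or 0.183%. CCAAT occurs 3 times in the Adipoq window and lies in 37.4% of all windows, and GGGCGG occurs 5 times in the Nampt window and lies in 35.7% of all windows. The Nampt window also holds AGGTCA, which lies in 16.3% of all windows. The Retn window holds none of the 7 strings, of which TTGCNNAA lies in 10.8%, TATAAA in 13.6% and CACGTG in 7.15% of all windows. Base composition separated the windows: CpG dinucleotides numbered 0 in Adipoq, 2 in Retn, 2 in Cfd, 19 in Lep, 15 in Apln and 36 in Nampt, and the G plus C content was 54.0% in Retn, 66.0% in Lep and 76.3% in Nampt. Rbp4 has 2 windows, with 40 and 5 CpG.

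Across tissues, Lep, Adipoq, Retn and Cfd were fat transcripts, Rarres2 and Rbp4 were highest in liver, Apln was highest in brain, and Nampt was found everywhere with its peak in brown fat. Together the 8 genes took 0.894% of all TPM in KO BAT and 0.922% in WT BAT, 3.15% in KO IAT and 3.05% in WT IAT, 0.0122% in KO brain and 0.0119% in WT brain, and 0.865% in KO liver and 0.835% in WT liver (means of 3 libraries, with SDs of 0.105 and 0.0873 percentage points in BAT and 1.29 and 0.701 in IAT). In WT mice, the mean of the fat depots was set against brain and against liver in 1 edgeR fit of the 24 libraries. Against brain, 7 members were higher in fat and Apln was lower, so that all 8 passed, where 80.2% of all genes did (39.7% higher, 40.4% lower). Against liver, 5 were higher (Lep, Adipoq, Retn, Cfd and Apln), 2 were lower (Rarres2 and Rbp4) and Nampt did not pass, where 65.3% of all genes passed (36.2% higher, 29.1% lower). The median of all genes lay at 0.17 against liver and 0.00 against brain on the log2 scale, and with RLE factors in place of TMM at 0.13 and -0.11, and no member changed direction.

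**Figure D2:**
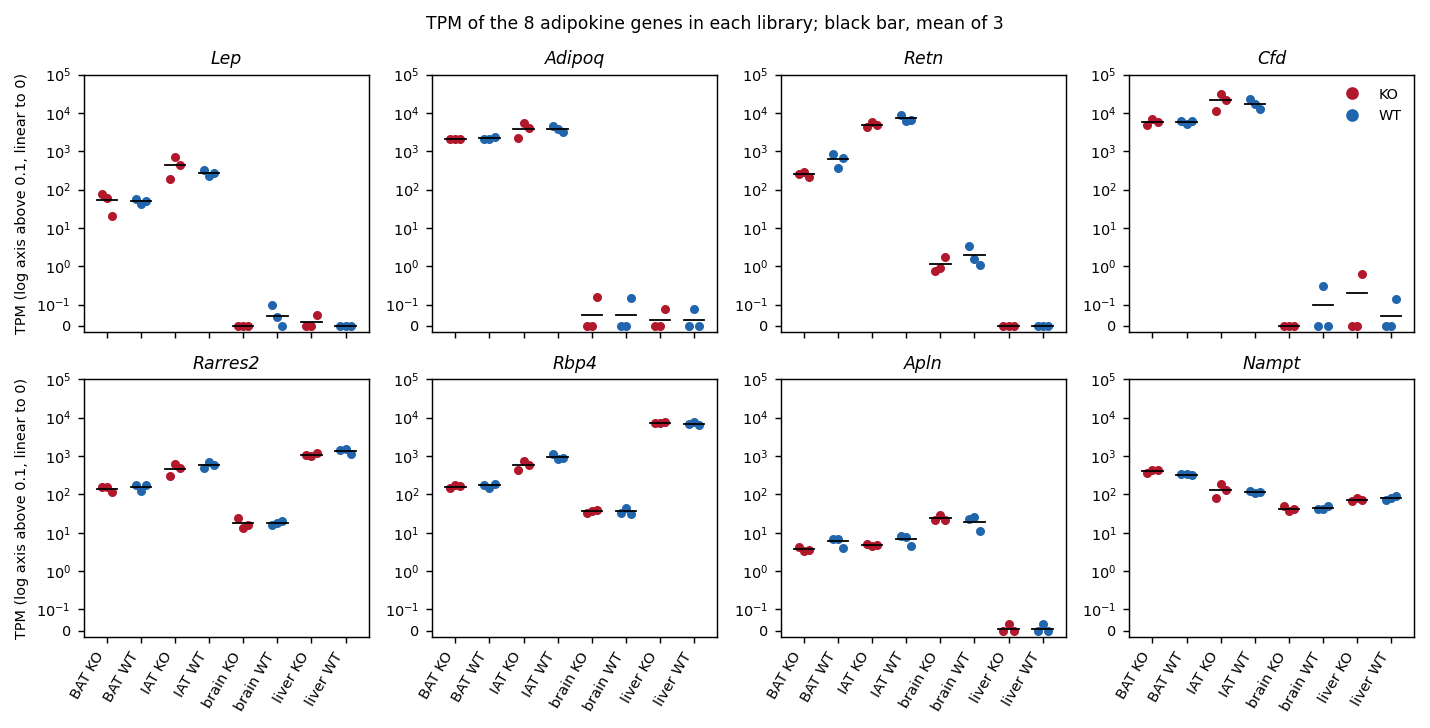
TPM of the 8 adipokine genes in each of the 24 libraries, with KO in red, WT in blue and the mean of each group as a black bar. The vertical axis is logarithmic above 0.1 TPM and linear below it. Lep, Adipoq, Retn and Cfd stand between 19.9 and 31038 TPM in fat and at most at 3.30 TPM in brain and liver, and Nampt stays between 36.2 and 425 TPM in all 24 libraries.

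The KO and WT groups were compared next, tissue by tissue, on expected counts with edgeR. No adipokine passed an adjusted p of 0.05 in any tissue. In BAT 0 of 8 passed, where 0.540% of all genes tested did, and 3 (Retn, Apln and Nampt) had an unadjusted p under 0.05, a share that was 18.5% over all genes. DESeq2 called 2 of them in BAT, Retn and Nampt, but it called 454 genes in all there, where edgeR called 68. With limma on log2(TPM + 1), 0 members were called in any tissue. In IAT 0 of 8 passed, where 0% of 14097 genes did, and 1, Rbp4, had an unadjusted p under 0.05, beside 15.8% of all genes, and DESeq2 called 0. In brain 0 of 4 tested members passed (0.0487% of all genes) and in liver 0 of 3 (1.11%), with 0 members at an unadjusted p under 0.05 in edgeR (6.58% of all genes in brain and 16.1% in liver) and 0 called by DESeq2. The other members were at or near 0 there and were left out by the low-count filter. The median log2 fold change of the members was 0.04 in BAT, where all genes tested had -0.01, and -0.18 in IAT, where all genes had 0.02.

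KO and WT libraries of BAT did not overlap for 2 of 8 members, Retn with lower and Nampt with higher KO values, where 25.6% of all genes (11.3% lower, 14.3% higher) showed such a separation in CPM, the counts scaled to library size with TMM factors. In IAT they did not overlap for Retn and Rbp4, both with lower KO values, where 18.5% of all genes were separated and 9.65% in that direction. In liver, CPM were separated for Rbp4 alone, with higher KO values (10.6% of all genes in that direction and 21.6% in either), while its TPM overlapped, and in brain for none of the members (12.5%). Rbp4 was thus separated in opposite directions in IAT and liver, as were 5.35% of all genes in some pair of tissues. In both depots the count of separated members therefore lay near the share of all genes.

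**Figure D3:**
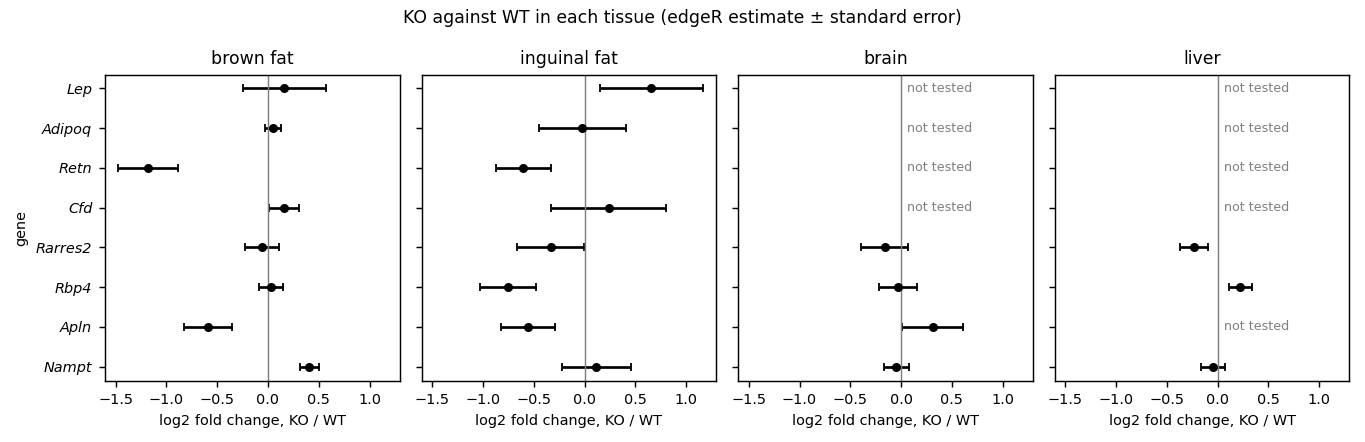
Log2 fold change of KO over WT from edgeR, with its standard error as a bar, for each adipokine gene in BAT, IAT, brain and liver; genes removed by the low-count filter are marked as not tested. Retn in BAT has the largest size, -1.18, and 0 of the 23 values passed an adjusted p of 0.05.

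Brown fat was then set against inguinal fat within each genotype, in 1 edgeR fit of the 12 fat libraries. The depots differed for 6 of 8 adipokines in KO and for the same 6 in WT: Lep, Retn, Cfd, Rarres2 and Rbp4 were lower in BAT, and Nampt was higher. Adipoq and Apln did not pass in either genotype. Over all 14271 genes tested, 60.4% passed in KO (34.7% lower, 25.7% higher) and 51.4% in WT (26.7% lower, 24.7% higher), so most genes differed between the depots. The members' median log2 fold change was -1.24 in KO and -1.33 in WT, where all genes had -0.15 and -0.03. Macrophage, stromal and mammary markers were also lower in BAT, with 10 of 10, 10 of 10 and 7 of 7 tested markers passing in each genotype, as were 12 of 12 lymphocyte markers in KO and 0 of 12 in WT, and 6 of 12 adipocyte markers were higher in BAT in each genotype. Their part in these differences was not tested. Without KO IAT replicates 1 and 3, more members passed in KO. Without WT IAT replicates 1 and 2, fewer passed in WT, Lep and Cfd being lost. Both choices were made after seeing the data. In both cases the lone IAT library is assumed to vary like the others, so these shifts are not read as results about the members. With 1 library left out, 5 to 7 members passed in KO and 5 to 6 in WT. Calls over all genes then ran from 7391 to 9623 in KO and from 5945 to 8454 in WT.

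**Figure D4:**
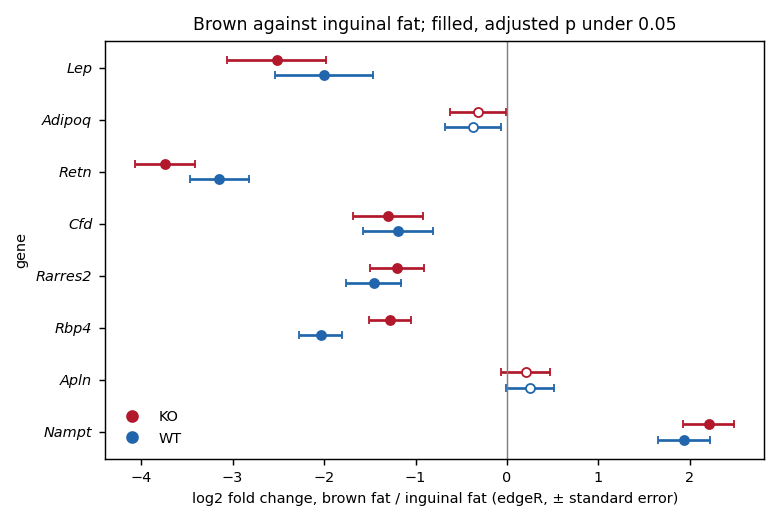
Log2 fold change of brown over inguinal fat from edgeR, with its standard error, in KO (red) and WT (blue); filled points passed an adjusted p of 0.05. Retn is lowest, at -3.74 in KO and -3.14 in WT, Nampt is highest, at 2.20 and 1.93, and Adipoq and Apln are open in both genotypes.

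The insulin-related hormones come first. Lep (gene 16846, chromosome 6, 29060221 to 29073876) had 77.9, 60.2 and 19.9 TPM in KO BAT, against 58.2, 41.2 and 51.1 TPM in WT BAT, and KO replicate 3 was below every WT library while the other KO libraries were above them. In IAT it had 185, 697 and 444 TPM in KO, against 327, 226 and 263 TPM in WT, so that KO libraries stood both below and above the WT range. The log2 fold change of KO over WT was 0.16 in BAT (SE 0.40, edgeR adjusted p = 0.849) and 0.66 in IAT (SE 0.51, adjusted p = 0.522). Leaving out KO replicate 2 moved the IAT value to 0.06, and leaving out KO replicates 1 and 3 together moved it to 1.4 (edgeR adjusted p = 0.656, the lone KO library being assumed to vary like the WT libraries). Between depots, Lep was lower in BAT by -2.52 in KO (SE 0.54, edgeR adjusted p = 0.00234) and -2.0 in WT (SE 0.53, adjusted p = 0.00916), with no overlap of BAT and IAT libraries in TPM. Outside fat it was close to absent: 0 counts in KO brain, 3 in WT brain, 2 in KO liver and 0 in WT liver, each summed over 3 libraries. With 3 counts as the floor over the group, Lep in WT fat was at least 2856-fold higher than in WT liver, in CPM normalised over all 24 libraries.

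Adipoq (gene 11450, chromosome 16, 23146536 to 23157968) was the steadiest member in brown fat. It had 2139, 2040 and 2050 TPM in KO BAT and 2070, 2074 and 2355 TPM in WT BAT, with overlapping groups. In IAT it had 2172, 5376 and 3926 TPM in KO, against 4429, 3729 and 3151 TPM in WT; the lowest value was that of KO replicate 1, the library with the lowest adipocyte sum. KO over WT was 0.05 in BAT (SE 0.08, edgeR adjusted p = 0.766) and -0.02 in IAT (SE 0.43, adjusted p = 0.981), where its sign turned with KO replicate 1 left out (0.28). Every BAT library lay below every IAT library of its genotype in TPM, but the edgeR values of -0.32 in KO (SE 0.31, adjusted p = 0.389) and -0.37 in WT (SE 0.31, adjusted p = 0.339) did not pass, and without KO IAT replicate 2 the KO value became 0.13. With limma on log2(TPM + 1) it was lower in BAT, by -0.79 in each genotype (adjusted p = 0.025 in KO and 0.0323 in WT), and without KO IAT replicate 1 edgeR called it in KO as well (-0.62, adjusted p = 0.0243). Brain and liver held 1 count per group of 3 libraries. The ratio of WT fat to WT liver, in CPM over the 24 libraries, was 52427, with a 95% counting interval of 9410 to 2070750.

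Retn (gene 57264, chromosome 8, 3655770 to 3659818) had the widest gap between genotypes. In BAT it had 258.5, 286.5 and 213 TPM in KO, against 855, 358 and 676 TPM in WT, so that all KO libraries were below all WT libraries and the KO mean was 40.1% of the WT mean. The log2 fold change was -1.18 (SE 0.29, n = 3 each, edgeR adjusted p = 0.126), which did not pass; DESeq2 called it (-1.18, adjusted p = 0.00058), as did the edgeR fit of all 24 libraries (-1.19, adjusted p = 0.0496). Over the alternatives the adjusted p ran from 0.00058 to 0.286. The highest WT value came from replicate 1, the library rich in muscle and macrophage transcripts, and without it the value was -0.86 (adjusted p = 0.209). In IAT Retn had 4175, 5706 and 4770 TPM in KO, against 8939, 6268 and 6710 TPM in WT, again without overlap. The fold change there was -0.60 (SE 0.27, edgeR adjusted p = 0.336). Without the lymphocyte-rich KO replicates 1 and 3 it was -0.26, with KO replicate 2 as the lone KO library. Between depots Retn was lower in BAT, by a log2 difference of -3.74 in KO (SE 0.33, edgeR adjusted p = 8.9e-06) and by -3.14 in WT (SE 0.32, adjusted p = 3.03e-05), the largest depot difference among the 8 members. Brain held 7 counts in KO and 11 in WT, and liver held 0 in both, so WT fat was at least 6306-fold higher than WT liver. By TPM Retn ranked 11th to 27th of all genes in KO IAT and 7th to 8th in WT IAT.

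Of the resistin-like relatives, Retnla, which macrophages and adipocytes make in mice, had 85.5, 165 and 178 TPM in KO BAT, against 710, 78.2 and 140 TPM in WT BAT, with overlapping groups. In IAT it had 2472, 1736 and 2053 TPM in KO, against 4300, 11393 and 11282 TPM in WT. These IAT groups did not overlap, with a log2 fold change of -2.15 (SE 0.43, edgeR adjusted p = 0.211) that did not pass, and macrophage marker sums were likewise above the KO range in WT replicates 2 and 3; their part was not tested. Retnlg stayed at or under 4.84 TPM in all 24 libraries. The reads behind Retn and its relatives were assigned by the authors, and how reads shared between such genes were split was not examined here.

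**Figure D5:**
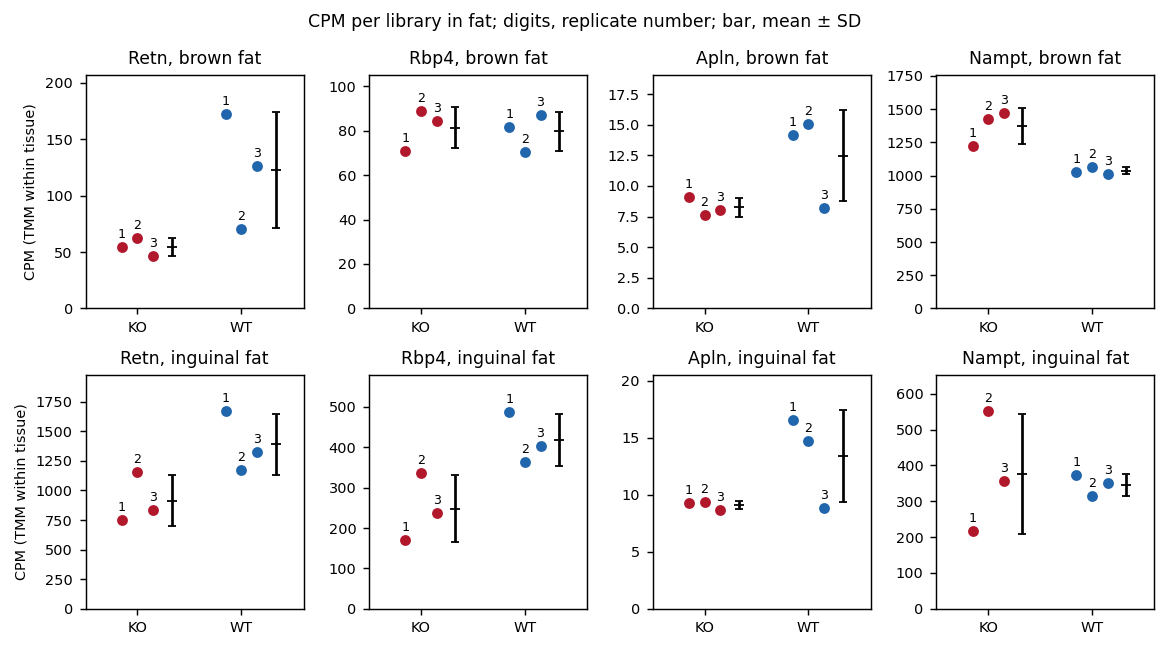
CPM, normalised by TMM within each tissue, of Retn, Rbp4, Apln and Nampt in BAT (top row) and IAT (bottom row), with the replicate number at each point and the mean ± SD of 3 libraries at the right of each group. KO and WT points are apart for Retn in both depots, for Rbp4 in IAT and for Nampt in BAT, and WT replicate 3 lies with the KO libraries for Apln in both depots.

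Cfd (gene 11537, chromosome 10, 79890853 to 79892655) was the most abundant member, at 4826, 6925 and 5783 TPM in KO BAT, against 5967, 5138 and 6030 TPM in WT BAT. In IAT it had 11284, 31038 and 21095 TPM in KO, against 22659, 17416 and 12522 TPM in WT, and ranked 2nd to 3rd of all genes in KO and 2nd to 4th in WT. KO and WT overlapped in both depots. The log2 fold change was 0.16 in BAT (SE 0.15, edgeR adjusted p = 0.578) and 0.24 in IAT (SE 0.56, adjusted p = 0.835), and the IAT value turned to -0.25 without KO replicate 2. Cfd was lower in BAT than in IAT, by -1.30 in KO (SE 0.38, edgeR adjusted p = 0.0127) and -1.20 in WT (SE 0.38, adjusted p = 0.0225). This call was the least firm of the 6: it was lost in WT when IAT replicate 1 or 2, or any BAT replicate, was left out (edgeR adjusted p = 0.0513 to 0.0785), and in KO without BAT replicate 1 (adjusted p = 0.0555) and in a fit of the 6 KO libraries alone (adjusted p = 0.0596). Brain held 0 counts in KO and 1 in WT, and liver 5 in KO, all from replicate 3, and 1 in WT. TPM weighs short transcripts up: in WT IAT Retn stood above Adipoq in TPM, at means of 7306 and 3770, but below it in summed counts, at 67924 and 118601.

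Rarres2 (gene 71660, chromosome 6, 48569696 to 48572845) and Rbp4 (gene 19662, chromosome 19, 38116620 to 38125321) were highest in liver and, next to it, in white fat. Rarres2 had 157, 154 and 114 TPM in KO BAT, against 178, 121 and 179 TPM in WT BAT, and 297, 628 and 480 TPM in KO IAT, against 474, 701 and 568 TPM in WT IAT. The genotypes overlapped in both depots. KO over WT was -0.06 in BAT (SE 0.17, edgeR adjusted p = 0.873) and -0.33 in IAT (SE 0.33, adjusted p = 0.612). The IAT value turned to 0.20 without the lymphocyte-rich KO replicates 1 and 3, which leaves a lone KO library. The BAT value ran from -0.22 to 0.061 with 1 library left out. In liver it had 1049, 988 and 1217 TPM in KO, against 1457, 1497 and 1150 TPM in WT (log2 fold change -0.23, SE 0.14, edgeR adjusted p = 0.459). Brain libraries averaged 17.6 TPM in KO and 17.99 TPM in WT. BAT was below IAT by -1.20 in KO (SE 0.29, edgeR adjusted p = 0.00475) and -1.46 in WT (SE 0.30, adjusted p = 0.00197), and WT fat was below WT liver by -3.17 (SE 0.20, adjusted p = 2.99e-11). Of its 2656 exon bases, 892 are shared with Lrrc61 on the opposite strand. Whether counting used the strand is not given in the sources used here. Lrrc61 itself had 7.99 to 11.7 TPM in KO BAT and 12.1 to 14.9 TPM in WT BAT. In brain, Lrrc61 had 12.67 to 16.4 TPM in KO and 13.31 to 17.96 TPM in WT, near the Rarres2 means there. The part of the shared bases in the brain level of Rarres2, and in its difference from fat, was not tested.

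Rbp4 carried the lowest unadjusted p of the set in IAT. It had 429, 746 and 600 TPM in KO IAT, against 1132, 852 and 914 TPM in WT IAT, with every KO library below every WT library and a KO mean at 61.2% of the WT mean. The log2 fold change was -0.75 (SE 0.28, edgeR adjusted p = 0.288). It did not pass. The edgeR fit of all 24 libraries called it (-0.76, adjusted p = 0.0189), but that fit called 2573 genes in all in IAT. It was also called by edgeR without KO replicate 2 (-1.04, adjusted p = 0.0449), where 1760 genes were called in all. That choice leaves only the lymphocyte-rich KO replicates 1 and 3. Without those 2 replicates the value was -0.31, with KO replicate 2 as the lone KO library. KO replicate 2 also had the highest adipocyte marker sum of the IAT libraries (62256 TPM). The part of lymphocytes or adipocytes in this shift was not tested. Over the alternatives the adjusted p ran from 0.0189 to 0.875. In BAT the genotypes overlapped, with 144, 175 and 161 TPM in KO and 176, 148.5 and 191 TPM in WT (log2 fold change 0.03, SE 0.12, edgeR adjusted p = 0.912). In liver, where Rbp4 ranked 16th to 18th of all genes, it had 7428, 7372 and 7677 TPM in KO, against 6709, 7500 and 6503 TPM in WT (log2 fold change 0.22, SE 0.11, edgeR adjusted p = 0.376). Brain averaged 36.8 TPM in KO and 36.0 TPM in WT. BAT was below IAT by -1.28 in KO (SE 0.23, edgeR adjusted p = 0.000782) and -2.04 in WT (SE 0.23, adjusted p = 5.97e-05), and WT fat below WT liver by -5.02 (SE 0.18, adjusted p = 3.32e-15).

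Apln (gene 30878, chromosome X, 48025146 to 48034853) was the rarest member in fat. It had 4.14, 3.35 and 3.48 TPM in KO BAT, against 6.81, 7.01 and 3.90 TPM in WT BAT, and 5.17, 4.59 and 4.78 TPM in KO IAT, against 8.30, 7.52 and 4.42 TPM in WT IAT. In both depots WT replicates 1 and 2 stood above the KO libraries while WT replicate 3 stood within the KO range in BAT and below it in IAT. KO over WT was -0.59 in BAT (SE 0.23, edgeR adjusted p = 0.241) and -0.56 in IAT (SE 0.26, adjusted p = 0.350). Without the muscle-rich WT replicates 1 and 2 the IAT value was -0.01, with WT replicate 3 as the lone WT library. The depots did not differ beyond their spread, at 0.21 in KO (SE 0.27, edgeR adjusted p = 0.522) and 0.26 in WT (SE 0.26, adjusted p = 0.436). In brain it had 21.1, 29.7 and 22.1 TPM in KO, against 22.4, 25.3 and 10.98 TPM in WT (log2 fold change 0.31, SE 0.30, edgeR adjusted p = 0.854). WT fat was below WT brain by -0.67 (SE 0.26, edgeR adjusted p = 0.0244), a call that was lost without WT replicate 3 of either depot (adjusted p = 0.0556 without that of IAT and 0.0587 without that of BAT), without WT brain replicate 1 (0.0927) or 2 (0.212), and in a fit of the 12 WT libraries alone (-0.67, adjusted p = 0.0556). Among the KO libraries the same contrast gave -1.56 (edgeR adjusted p = 1.4e-05). Liver held 1 count in KO and 1 in WT.

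Nampt (gene 59027, chromosome 12, 32820335 to 32853369) was the only member that was higher in brown than in inguinal fat. It had 371, 421 and 425 TPM in KO BAT, against 331, 333 and 322 TPM in WT BAT, so that every KO library lay above every WT library and the KO mean was 123.5% of the WT mean. The log2 fold change was 0.41 (SE 0.09, n = 3 each, edgeR adjusted p = 0.107) and did not pass; DESeq2 called it (0.41, adjusted p = 0.0039), limma on log2(TPM + 1) did not, and the adjusted p ran from 0.0039 to 0.483 over the alternatives. In IAT it had 81.6, 182 and 132 TPM in KO, against 125, 108 and 117 TPM in WT, with KO libraries on both sides of the WT range (log2 fold change 0.12, SE 0.34, edgeR adjusted p = 0.869), and -0.28 without KO replicate 2. BAT stood above IAT by 2.20 in KO (SE 0.28, edgeR adjusted p = 9.98e-05) and 1.93 in WT (SE 0.28, adjusted p = 0.000255), again with no overlap. In liver it had 67.8, 80.7 and 69.4 TPM in KO, against 69.3, 78.2 and 92.0 TPM in WT, and in brain 48.4, 36.2 and 40.4 TPM in KO, against 40.7, 40.5 and 48.7 TPM in WT; neither difference passed (log2 fold change -0.05 in each, edgeR adjusted p = 0.893 in liver and 0.954 in brain). WT fat and WT liver differed by 0.34 (SE 0.19, edgeR adjusted p = 0.135). That difference was called among the KO libraries (0.65, adjusted p = 0.00654), and in WT by limma on log2(TPM + 1) (1.29, adjusted p = 4.98e-07) and in a fit of the 12 WT libraries alone (0.33, adjusted p = 0.0159).

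Whether the KO effect differed between depots was tested as an interaction in the 12 fat libraries. It passed for 0 of 8 members and for 0 of 14271 genes (0% of all, 12.0% at an unadjusted p under 0.05), with Rbp4 at a log2 difference of 0.76 (SE 0.32, edgeR adjusted p = 0.396) as the only member with an unadjusted p under 0.05, and DESeq2 called 0 members. The Rbp4 value was called by edgeR without KO IAT replicate 2 (1.08, adjusted p = 0.0245), which leaves the lymphocyte-rich KO IAT libraries. With 1 library left out, calls over all genes ran from 0 to 1557 for this interaction. For Retn it was -0.59 (SE 0.42, edgeR adjusted p = 0.550) and for Nampt 0.27 (SE 0.38, adjusted p = 0.774). Over all 4 tissues, edgeR called 0 of 8 members different (0.421% of all genes), and Rbp4 was again the only member with an unadjusted p under 0.05 (adjusted p = 0.183).

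Because adipocyte marker RNA differed between IAT libraries, each member was also read as log2 CPM minus the mean log2 CPM of the 12 adipocyte markers. That mean was 8.33, 10.14 and 9.44 in KO IAT, against 9.89, 9.55 and 9.40 in WT IAT, and at most 10.56 in KO BAT and 10.49 in WT BAT. On this scale KO minus WT in BAT was -1.20 for Retn and 0.30 for Nampt, with groups that did not overlap (two-sided exact permutation p = 0.1, the smallest that 3 against 3 allows). Adipoq stood at -0.05 in BAT, with its groups apart by only 2.2e-05 on the log2 scale. These 3 of 8 members stand beside 25.9% of all genes that were apart on this scale in BAT (20.0% lower, 5.90% higher). In IAT, Lep (0.74), Cfd (0.43) and Adipoq (0.17) had KO values above all WT values (exact permutation p = 0.1 each), where 3.13% of all genes were apart and 2.57% in that direction. Subtracting the marker mean narrows the spread of genes that follow it and widens that of genes that do not. Adipoq (Pearson r = 0.997), Cfd (0.93) and, less closely, Lep (0.70) follow it. The share of all genes is therefore not a like background for these members, and no excess of members is read from it. For Adipoq the gap in IAT was 0.0036 on the log2 scale, against 0.34 for Lep and 0.27 for Cfd. Retn (-0.31, exact permutation p = 0.5) and Rbp4 (-0.49, exact permutation p = 0.3) overlapped on this scale in IAT. The Retn difference in BAT was thus as large per adipocyte marker RNA as per total RNA. In IAT the mean difference was smaller, with values of 1.01, -0.13 and 0.12 in KO and 0.63, 0.48 and 0.82 in WT. KO replicate 1 stood above all WT libraries, and KO replicates 2 and 3 stood below them. The part of adipocyte content in these differences was not tested.

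Among the 12 fat libraries, with the mean of each depot and genotype group removed, Adipoq followed the adipocyte markers closely (Pearson r = 0.997), as did Nampt (0.95), Cfd (0.93) and Rbp4 (0.90). Rarres2 (0.71) and Lep (0.70) followed them less, Retn at 0.44 and Apln at 0.17. The points share the same 12 libraries, and within IAT the lowest and highest marker level belong to KO replicates 1 and 2, so these coefficients are descriptions. By the rule for alike genes, which ranked 10952 genes by Pearson r over the same 12 libraries, the nearest to each member were Ccdc9b to Lep (r = 0.99, Spearman rho = 0.97), Acad11 to Adipoq (r = 0.99, rho = 0.94), Lsr to Retn (r = 0.96, rho = 0.96), Srek1ip1 to Cfd (r = 0.98, rho = 0.99), Tcf7l1 to Rarres2 (r = 0.95, rho = 0.91), Nudt4 to Rbp4 (r = 0.99, rho = 0.96), Zfp609 to Apln (r = 0.92, rho = 0.86) and Scp2 to Nampt (r = 0.99, rho = 0.95).

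Genes around the adipokines were read from 5 lists. In BAT, edgeR called 0 of 20 other secreted proteins of fat, 0 of 11 receptors, 0 of 9 processing and carrier partners, 0 of 12 genes of NAD salvage and 0 of 15 transcriptional regulators between KO and WT, with median log2 fold changes of -0.21, -0.34, 0.08, -0.04 and -0.03. The smallest p among the regulators belonged to the clock factor Arntl (1.65, SE 0.33, edgeR adjusted p = 0.0789) and to Cebpb, an early factor of adipocyte differentiation (1.86, SE 0.41, adjusted p = 0.0968), neither of which passed. Among the receptors, Cmklr1, which binds chemerin, had -0.80 (SE 0.25, edgeR adjusted p = 0.177). In IAT, 0 of 21, 0 of 12, 0 of 12, 0 of 13 and 0 of 15 were called, with medians of -0.33, -0.43, -0.11, -0.08 and -0.06. The smallest p there were those of Metrnl (-1.72, SE 0.30, edgeR adjusted p = 0.175) and of the complement receptor C3ar1 (-2.14, SE 0.38, adjusted p = 0.176), in a tissue where 10 of 10 macrophage markers also had lower KO values, and the part of macrophages was not tested. In liver 1 of 67 listed genes tested passed (1.49%, where 1.11% of all genes did), the clock repressor Nr1d1, which fell by 0.82 in KO (SE 0.15, edgeR adjusted p = 0.0467), and in brain 0 of 63 did.

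Between depots these lists moved in different directions. Of the 13 genes of NAD salvage, 8 were higher and 2 lower in BAT in KO, and 9 were higher and 2 lower in WT. Among them were the mitochondrial deacetylase Sirt3 (3.10 in KO, edgeR adjusted p = 1.03e-06, and 2.83 in WT, adjusted p = 2.05e-06) and the mitochondrial NAD carrier Slc25a51 (2.85 in KO, adjusted p = 3.8e-06, and 2.55 in WT, adjusted p = 1.08e-05), which stood higher alongside Nampt. Of the 12 tested partners, 2 were higher and 8 lower in KO, and 1 higher and 8 lower in WT. The alternative pathway factor Cfb, the protein that Cfd cleaves, was at -4.51 in KO (edgeR adjusted p = 1.86e-05) and -3.49 in WT (adjusted p = 8.59e-05), and properdin, Cfp, which stabilises the enzyme of that pathway, at -3.34 (adjusted p = 0.000427) and -3.82 (adjusted p = 0.000212). Of the 12 receptors, 4 were higher and 6 lower in KO, and 2 higher and 7 lower in WT, with Cmklr1 at -3.92 and -3.37 (edgeR adjusted p = 1.05e-05 and 2.97e-05) and the leptin receptor Lepr at -5.77 and -2.63 (adjusted p = 0.00011 and 0.00681). Of the 22 other secreted proteins, 9 were higher and 11 lower in KO, and 9 higher and 10 lower in WT, with Pm20d1, a secreted enzyme that makes N-acyl amino acids, at 3.00 and 2.89 (edgeR adjusted p = 0.000145 and 0.000205) and lipocalin 2, Lcn2, at -4.61 and -4.45 (adjusted p = 0.00021 and 0.000271). Of the 15 regulators, 7 were higher and 2 lower in KO, and 5 higher and 2 lower in WT, with Prdm16, a brown fat coregulator, at 1.94 in KO and 2.18 in WT (edgeR adjusted p = 0.00105 and 0.000609). These counts stand beside the 60.4% and 51.4% of all genes that differed between the depots. Macrophage and stromal markers, and in KO lymphocyte markers, were also lower in BAT, and their part was not tested. In IAT, with its lymphocyte-rich KO replicates 1 and 3, Lepr was at 2.12 for KO over WT (SE 0.72, edgeR adjusted p = 0.271), which did not pass.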

How the data were processed

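Bulk RNA was sequenced from KO and WT brown fat, inguinal fat, brain and liver, 3 libraries per group. Per the file headers, the authors deposited expected counts and TPM per gene and library. Per the submitters' processing notes, which give no roles, the tools named are RSEM 1.3.1, Bowtie2 2.3.4.3 and DESeq2 1.4.5 and the build is GRCm38.p6. The annotation, filters and strandedness are not given in these sources. The table's other 48 columns of single samples stayed out. Rounded expected counts were tested with edgeR 4.0.16 (TMM, filterByExpr, quasi-likelihood F-test, Benjamini-Hochberg over all genes tested, called under 0.05) in R 4.3.3, per tissue (6 libraries), over the 12 fat libraries or over all 24. Standard errors come from the F statistic. DESeq2 1.42.0 and limma 3.58.1 on log2(TPM + 1), for genes with a mean of at least 1 TPM, were alternatives, with RLE factors, no filter, a pseudocount of 0.1, a replicate block and each library left out. The code was tested on simulated data. TPM compares levels between genes; fold changes rest on counts. The design text counts 3 mice for a group but no label ties a library to a mouse, and p-values measure only the spread between these libraries. Replicates correlated at 0.832 to 0.988 and differed by more than sampling noise. Whether same-numbered libraries of different tissues come from the same mouse is not given. Floors are 3 counts summed over a group, and 95% intervals cover counting error only. Named were all 8 members, Prxl2a, relatives of Retn, up to 6 called genes of each list by size of change or, with none called, up to 2 by smallest p, and genes alike with a mean of at least 5 CPM. Members and lists were chosen with earlier results of these data known.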

Additional observations from a re-analysis of the deposited data

Results flagged for a closer look

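The KO libraries of Rbp4 lay on opposite sides of its WT libraries in 2 tissues, as did those of 5.35% of the 13839 genes tested in at least 2 tissues. In IAT every KO library was below every WT library in CPM, with a log2 fold change of -0.75 (SE 0.28, edgeR adjusted p = 0.288), where 9.65% of all genes were apart in that direction. Without KO replicates 1 and 3, which leaves a lone KO library, the fold change was -0.31. In liver every KO library was above every WT library in CPM, with a log2 fold change of 0.22 (SE 0.11, edgeR adjusted p = 0.376), at a mean of 3532 ± 95.2 CPM in KO and 3026 ± 187 CPM in WT (SD, n = 3 each), while its TPM overlapped there and 10.6% of all genes were apart in that direction. The difference between these 2 tissues was not tested on its own. The edgeR test of any difference among the 4 tissues gave an adjusted p of 0.183 for Rbp4 and did not pass.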

How the results depend on the processing

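Member calls between KO and WT depended on the method in fat, while the count stayed at 0 in brain and liver. In the fit of all 24 libraries the count became 1 in IAT (Rbp4) and 1 in BAT (Retn). With DESeq2 it became 2 in BAT (Retn and Nampt). Leaving out 1 library gave 0 to 1 in IAT and 0 to 1 for the depot interaction. Brown against inguinal fat gave 5 to 6 in WT and 5 to 7 in KO with 1 library left out. It gave fewer in WT without WT IAT replicates 1 and 2 and more in KO without KO IAT replicates 1 and 3. Both choices were made after seeing the data and leave a lone IAT library in the group. These signs turned, and the cause was not tested. In IAT, Adipoq was 0.57 and Rarres2 0.20 without KO replicates 1 and 3. Adipoq was 0.18 without WT replicates 1 and 2, and 0.17 against the adipocyte markers. Each of these omissions leaves a lone library in its group. In BAT, Lep was -0.12 and -0.13 with limma (pseudocounts 1 and 0.1) and -0.13 against the adipocyte markers; Adipoq was -0.059 with limma and -0.050 against the markers; Rbp4 was -0.10 with limma and -0.074 against the markers. Brain Rbp4 was 0.043 and 0.045 with limma. Apln between depots was -0.16 and -0.19 in WT and -0.33 and -0.40 in KO with limma, and its interaction was 0.030 with RLE factors and 0.034 with DESeq2.

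With 1 library left out, ranges that crossed 0 were, in IAT, -0.44 to 0.28 for Adipoq, -0.25 to 0.56 for Cfd and -0.28 to 0.39 for Nampt; in BAT, -0.21 to 0.55 for Lep, -0.22 to 0.061 for Rarres2 and -0.053 to 0.11 for Rbp4; in brain, -0.12 to 0.15 for Rbp4 and -0.16 to 0.039 for Nampt; in liver, -0.13 to 0.074 for Nampt; between depots in KO, -0.62 to 0.13 for Adipoq. For the interaction they were -0.90 to 0.10 for Lep, -0.25 to 0.50 for Adipoq, -0.43 to 0.41 for Cfd, -0.011 to 0.64 for Rarres2, -0.27 to 0.17 for Apln and -0.0062 to 0.69 for Nampt.

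The replicate block, with BAT Lep at -0.0047, changed no member call. Deviations of same-numbered KO and WT libraries, which cannot be of the same mouse, correlated at -0.36 to -0.18 in BAT and -0.18 to -0.03 in IAT. In brain they correlated at 0.05 to 0.38 and in liver at -0.07 to 0.18. Same-numbered BAT and IAT libraries correlated at -0.02 to 0.08 in KO and -0.34 to 0.26 in WT. No label ties the numbers to mice, and they were not taken to pair libraries. Calls over all genes moved more. DESeq2, the fit of 24 libraries and omission of 1 library gave 1138, 2573 and 0 to 1760 genes in IAT (0 by edgeR; 192 without WT replicate 1 and 1760 without KO replicate 2), and 454, 173 and 2 to 94 in BAT (68 by edgeR; 29 and 28 with limma, 1 with the block). Brain gave 55 with DESeq2 and 4 with the block (7 by edgeR, 1 to 9 with 1 library left out), and liver 378 with DESeq2, 218 without the filter and 228 with the block (137 by edgeR, 58 to 103 with 1 library left out). The interaction gave 185 with DESeq2, 23 in 24 libraries, 1 with the block and 0 to 1557 with 1 library left out (0 by edgeR), and the 4-tissue test 103 with RLE factors and 37 with the block (68 by edgeR). Apart from omission of 1 library, 435 of the members' fold changes kept direction and side of the threshold, 12 gained a call, 4 lost it and 22 changed sign. Depth limits Lep, Adipoq, Retn and Cfd in brain and liver, where 0 to 11 counts per group allow no test.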

Other observations

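The genes around the adipokines were also set against liver in WT mice. Of 26 other secreted proteins of fat, 14 were higher and 6 lower in fat than in liver in the edgeR fit of 24 libraries, and of 14 receptors 8 were higher and 2 lower, where 65.3% of all genes passed. All 12 partners that passed, of 14 tested, were lower in fat, among them the complement protease Masp1 (-6.16, edgeR adjusted p = 2.22e-15) and the Cfd substrate Cfb (-5.08, adjusted p = 1.45e-12). Of the 13 genes of NAD salvage, 2 were higher and 8 lower, with the mitochondrial NAD kinase Nadk2 at -2.97 (edgeR adjusted p = 8.8e-14). Of the 15 regulators, 4 were higher and 4 lower. The leptin receptor Lepr stood at -4.45 (edgeR adjusted p = 3.75e-08), and the complement receptor C5ar1 at 3.39 (adjusted p = 1.67e-06).

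Set against brain, where 80.2% of all genes passed, the same lists leaned toward fat: 21 higher and 2 lower of 26 other secreted proteins, 9 and 3 of 14 receptors, 8 and 3 of 14 partners, 9 and 1 of 13 genes of NAD salvage and 11 and 3 of 15 regulators. Nmnat2, the neuronal enzyme that makes NAD from the product of Nampt, was lower in fat by -7.14 (edgeR adjusted p = 5.78e-16), and complement C3 was higher by 11.91 (adjusted p = 1.52e-15). Aplnr was higher in fat than in brain by 7.63 (edgeR adjusted p = 4.05e-11), whereas its ligand Apln was lower by -0.67 (adjusted p = 0.0244). The Apln call was lost in a fit of the 12 WT libraries alone and without some single libraries (edgeR adjusted p up to 0.212).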
